A study of Mus musculus with 4 samples.

Results

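The genes described here encode 10 surface proteins. Cd24a, Kit, Cd44, Epcam, Alcam and Cd47 encode surface antigens used to sort cells of the intestinal crypt. Cd9, Cd63, Cd81 and Cd82 encode tetraspanins. The 10 genes were found by gene name among the gene probes of the arrays, where 16 probes carried one of these names. The arrays named 28307 genes, of which 14802 could be tested, and all 10 genes were among those tested. RNA was compared between sorted cells from colonic crypts of adult Lgr5-EGFP-ires-CreERT2 knock-in mice. In these mice the GFP reporter and the inducible Cre recombinase are read from the Lgr5 locus. The population labelled Lgr5-GFP was sorted on that GFP, and the population labelled CD24hi was sorted with a fluorescent antibody to CD24 at its high level, which the series describes as a route to a subset of goblet cells. Both populations carry the same knock-in allele, no treatment is given in the labels, and GFP reports activity of the Lgr5 locus rather than LGR5 protein. The labels give neither a strain nor the number of animals pooled. Whether separate animals gave the 2 replicates is not in the labels. The p-values here therefore measure the spread between these samples alone, and that spread may be technical.

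Surface antigens let live crypt cells be separated by an antibody instead of a reporter gene. CD24 is a small, heavily glycosylated protein anchored in the membrane by a lipid, and KIT is the receptor tyrosine kinase for stem cell factor. In the colon both have been used to mark secretory cells that sit between the stem cells at the crypt base. CD44 is the receptor for the matrix sugar hyaluronan and is a target of Wnt signalling in crypts, EPCAM is an adhesion protein of nearly all epithelial cells, and ALCAM (CD166) is an adhesion protein of the immunoglobulin superfamily. CD47 is the cell's signal to macrophages through their receptor SIRPA. Tetraspanins cross the membrane several times and gather integrins and other partner proteins into patches of membrane.

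The probes are single strands of 60 bases, and 6 of them are given here because the measurements below depend on where each one lies. Positions are those of the deposited annotation (build mm9), sequences are from the deposited array files, and no letters are in capitals because no part was singled out. The Kit and Cd24a probes carry the names of the antigens used for secretory cells, and the first 30 bases of each are shown. The Cd44 probe is the one whose ratio stood apart from the other probes of that gene. The annotated spans of the Epcam, Alcam and Cd63 probes are longer than the probes themselves (829, 1878 and 214 bases), so each is assembled from separate genomic blocks, as a probe across an intron of a spliced transcript is.
Kit (chr5:76052287-76052346, + strand): tgtggtcatgtacgagactgtcaccagtta
Cd24a (chr10:43303706-43303765, + strand): cttggttctaccgtaagtttttccaatttc
Cd44 (chr2:102674420-102674479, - strand): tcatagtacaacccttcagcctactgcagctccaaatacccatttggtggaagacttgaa
Epcam (chr17:88048972-88049800, + strand): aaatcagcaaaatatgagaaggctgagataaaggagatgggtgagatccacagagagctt
Alcam (chr16:52268908-52270785, - strand): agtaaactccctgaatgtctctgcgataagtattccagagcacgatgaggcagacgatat
Cd63 (chr10:128348658-128348871, + strand): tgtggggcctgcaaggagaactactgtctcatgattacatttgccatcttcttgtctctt

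Each of 4 arrays carried both populations in different dyes. A replicate paired a first array, where Lgr5-GFP-labelled RNA was in Cy3, with a dye swap, where it was in Cy5. The replicates were on different slides, and slide cannot be told apart from replicate. The dye swap of replicate 1 stood apart: 75.3% of its gene spots were marked as outliers by the scanner software and left out, against 0.231% to 0.399% on the other arrays, and 9142 of the tested genes had no value there. Its median spot signals were 4377 and 1358 in the Lgr5-GFP-labelled and CD24hi-labelled RNA, where those of the other arrays lay between 94.2 and 197. Values are log2 ratios of Lgr5-GFP-labelled RNA over CD24hi-labelled RNA, so that 1 is a doubling, with each replicate given as the mean of its arrays (n = 2). The correlation across genes, which are no independent replicates, was 0.721 to 0.958 between turned arrays (Pearson's r) and 0.908 between replicates. The number of arrays limits the precision.

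The genes that define the sorts ran against the labels. Lgr5, the reporter's own locus, had log2 ratios of -3.61 on the first array of replicate 1, -2.90 on the first array of replicate 2 and -3.51 on its dye swap, with no value on the other array. All 3 lay on the side of the CD24hi-labelled RNA, and Lgr5 was 10.6-fold lower in the Lgr5-GFP-labelled RNA (-3.41 ± 0.29, SD, n = 2; limma, adjusted p = 6.23e-04). In that RNA the probe behind these values passed the background test on 2 of the 3 arrays, and in the CD24hi-labelled RNA on all 3. Lgr5 thus entered the test through the population where it was high, and its call is no support. A second Lgr5 probe did not pass that test on every array in either population and was left out. Its log2 ratios were -0.13 and 0.28 in replicate 1 (first array, then swap) and 0.07 and 0.03 in replicate 2, with a mean of 0.06. Since the tested Lgr5 probe ran against the labels, the populations are called by their labels only. With the sign turned every "higher" below becomes "lower".

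Of the 10 surface antigen genes, Cd24a, Kit, Cd82, Cd63, Alcam and Cd47 were higher in the Lgr5-GFP-labelled RNA and Cd44 and Cd81 were lower (limma, adjusted p under 0.05). Epcam and Cd9 did not pass. Calls were common on these arrays: 47.2% of all tested genes were called, 21.7% higher and 25.5% lower, against 80% of these 10 genes. The median log2 ratio of the 10 genes was 0.53, and that of all tested genes was -0.07. Without the dye swap of replicate 1, 7 of the 10 were called higher and 2 lower, beside 57.7% of all genes tested. Without the first array of replicate 1, which leaves that replicate to its outlier-rich swap, Alcam and Cd47 had no value, and of the other 8 genes 2 were called higher and 1 lower, beside 16.3% of all genes tested. In a bulk sample, a larger share of cells with an antigen and more of its RNA per cell cannot be told apart.

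**Figure D1:**
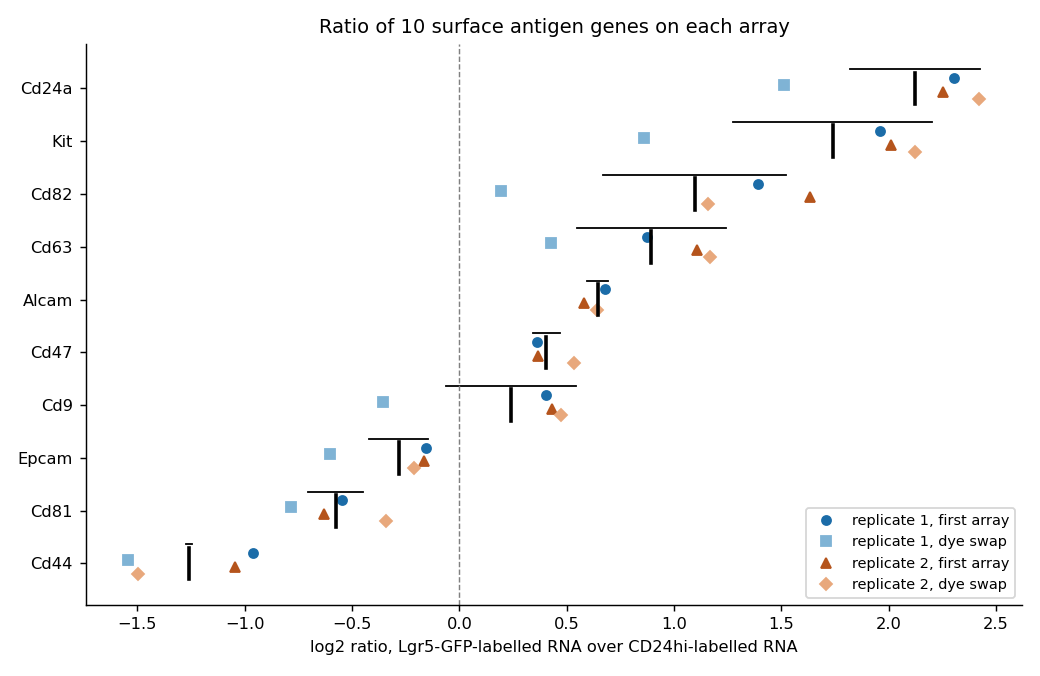
Log2 ratio of Lgr5-GFP-labelled RNA over CD24hi-labelled RNA for the 10 genes, on each of the 4 arrays (points); the vertical bar is the mean of 2 replicates and the horizontal bar its SD. Cd24a and Kit lie highest and Cd44 lowest, and the dye swap of replicate 1 (light squares) lies left of the other arrays for each of the 8 genes with a value there.

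Cd24a, the gene of the antigen that the CD24hi cells were sorted on, was 4.35-fold higher in the Lgr5-GFP-labelled RNA, the population that was not sorted on it. Its mean spot brightness in that RNA was 46341 and 80539 on the arrays of replicate 1 and 25929 and 45932 on those of replicate 2. In the CD24hi-labelled RNA it was 14241, 9823, 8009 and 7712 on the same arrays. On each array the first lay above the second. These signals are not scaled between arrays or dyes, and how many of all tested genes show the same was not counted. On the dye swaps the median gene spot was also brighter in the Lgr5-GFP-labelled RNA (4377 against 1358 in replicate 1, 164 against 110 in replicate 2). The log2 ratios were 2.30, 1.51, 2.25 and 2.42 for replicate 1 (first array, then swap) and replicate 2 (likewise). Their mean was 2.12 ± 0.30 (SD, n = 2; limma, adjusted p = 7.78e-04), a ratio that 1.3% of tested genes reached or passed.

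Kit had log2 ratios of 1.96, 0.86, 2.01 and 2.12 on the arrays in the same order, all higher in the Lgr5-GFP-labelled RNA. Its brightness in that RNA was 2701, 6475, 1548 and 2684, and in the CD24hi-labelled RNA it was 1119, 1393, 640 and 609. On each array the value in the Lgr5-GFP-labelled RNA was the higher, in signals again not scaled between arrays or dyes. On the dye swaps that was also so for the median gene spot. The mean was 1.74 ± 0.46, or 3.34-fold (limma, adjusted p = 0.00172). The Kit probe was printed in 10 spots, whose log2 ratios differed within an array by an SD of 0.07 to 0.12, so the gap between the dye swap of replicate 1 and the rest lay far outside the spread between spots. The deposited annotation names this probe for a truncated kinase transcript of Kit, and whether it also reads the full-length transcript was not tested. Both calls kept their direction and side of the threshold in each of the 16 alternatives that gave a test.

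The ligand of KIT moved the other way. Kitl, which encodes stem cell factor, had log2 ratios of -2.03, -0.62, -0.91 and -1.02, each on the side of the CD24hi-labelled RNA. Its mean was -1.15 ± 0.26 (limma, adjusted p = 0.00260). The call was kept in 13 of 16 tested alternatives (adjusted p from 4.86e-06 to 0.123).

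Cd44 was the member with the strongest ratio toward the CD24hi-labelled RNA, which is also the side of Lgr5. Its brightest probe had log2 ratios of -0.96, -1.54, -1.04 and -1.50, and its mean was -1.26 ± 0.01, or 2.40-fold lower in the Lgr5-GFP-labelled RNA (limma, adjusted p = 0.00131). The first arrays of both replicates lay near -1 and both dye swaps near -1.5, so the small SD of the replicate means does not show the spread between dye orientations. A second probe, printed in 10 spots (chr2:102651667-102651726), gave -1.07, -0.81, -1.09 and -1.28 and a mean of -1.06. On that probe the orientations did not separate in the same way.

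The third Cd44 probe differed from those 2. Its log2 ratios were -0.17, -0.08 and -0.21 on the 3 arrays with a value, with a mean of -0.16. It lay above the brightest probe by 0.78, 0.96 and 1.29 and above the 10-spot probe by 0.90, 1.01 and 1.07 on those arrays. The deposited annotation lists 3 RefSeq transcripts of Cd44 for each of the first 2 probes and 2 of those 3 for this one, whose sequence is given above. It was also dim: in the Lgr5-GFP-labelled RNA its brightness was 136, 96.5 and 192 on those arrays, and it was not well above background there on the first array of replicate 2. With the scanner software's processed signals the probe had a mean of -0.47, against -1.48 for the brightest probe. The part of dimness or of transcript form in the gap was not tested.

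**Figure D2:**
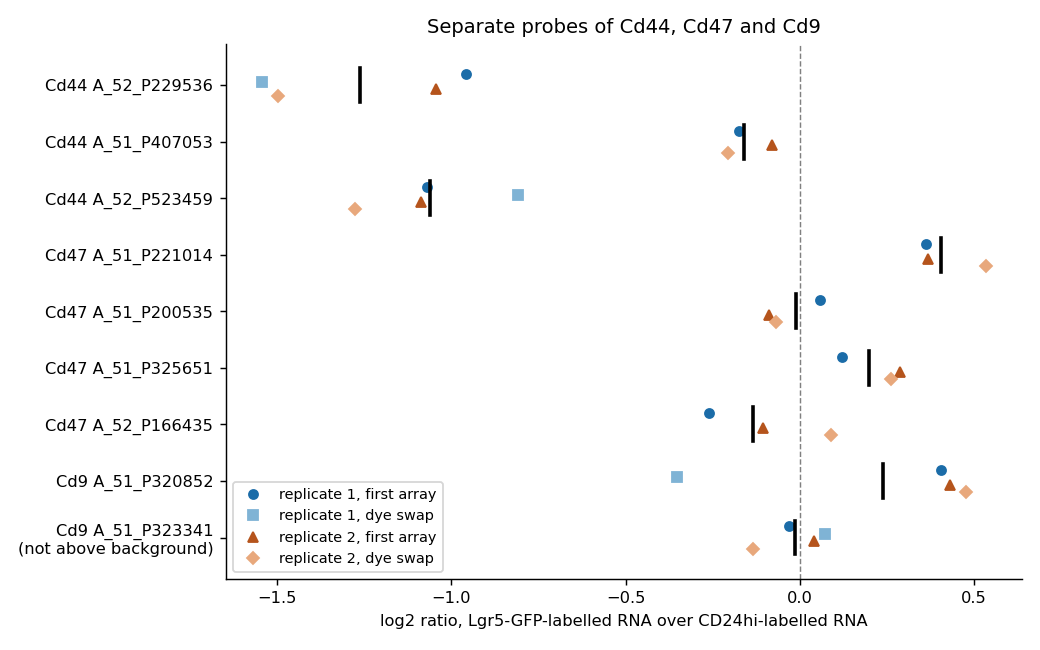
Log2 ratio of Lgr5-GFP-labelled RNA over CD24hi-labelled RNA for each probe of Cd44, Cd47 and Cd9, on each array (points), with the mean over 2 replicates (bar); the first probe of each gene is the brightest and stands for it. The Cd44 probe A_51_P407053 lies at -0.16 while the other Cd44 probes lie at -1.26 and -1.06, and the 4 Cd47 probes run from -0.13 to 0.41.

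The adhesion genes moved less. Epcam, whose product is on nearly every epithelial cell, had log2 ratios of -0.16, -0.60, -0.16 and -0.21. All 4 arrays lay below 0 but the mean of -0.28 ± 0.14 did not pass (95% interval from -0.60 to 0.04; limma, adjusted p = 0.123), nor did it in any of 16 tested alternatives (0.0616 to 0.563). Alcam, whose product binds CD6 on T cells and other ALCAM molecules, had 0.68, 0.58 and 0.64 on 3 arrays, with no value on the dye swap of replicate 1. These arrays lay close together, and Alcam was 1.56-fold higher in the Lgr5-GFP-labelled RNA (0.64 ± 0.05; limma, adjusted p = 0.00909). Its call was lost in 3 of 14 tested alternatives, at an adjusted p of up to 0.0925.

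Cd47 was the weakest call. Its brightest probe had log2 ratios of 0.36, 0.37 and 0.53 on the 3 arrays with a value, with a mean of 0.41 ± 0.06 (limma, adjusted p = 0.0406). The other Cd47 probes, which lie on the same strand but carry no RefSeq transcript in the annotation, had means of 0.20, -0.01 and -0.13. The call was lost in 8 of 14 tested alternatives (adjusted p from 0.0164 to 0.487), among them the mean of all probes (0.11) and the fit without the dye swap of replicate 2 (0.36, adjusted p = 0.0609). Sirpa, which encodes the receptor that CD47 binds and is found mainly on myeloid cells and neurons, had log2 ratios of 2.07, 0.996 and 1.55 on 3 arrays, all higher in the Lgr5-GFP-labelled RNA. Its mean was 1.67 ± 0.56 (limma, adjusted p = 0.00258), but over alternatives the ratio ran from 0.08 to 3.09 and the call was kept in 11 of 13 with a test. The Sirpa probe was well above background on 3 arrays in the Lgr5-GFP-labelled RNA and on 2 in the CD24hi-labelled RNA. Sirpa thus entered the test through the population where it was high, and its call is no support.

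The 4 tetraspanins among the members did not move together. Cd82, a tetraspanin that restrains cell movement, had log2 ratios of 1.39, 0.19, 1.63 and 1.16 and was 2.14-fold higher in the Lgr5-GFP-labelled RNA (1.10 ± 0.43; limma, adjusted p = 0.00545). Cd63, a tetraspanin of late endosomes, lysosomes and secretory granules, had 0.87, 0.43, 1.11 and 1.17 and was 1.86-fold higher (0.89 ± 0.35; limma, adjusted p = 0.00753). Both were higher on every array and lowest on the dye swap of replicate 1. Cd81, which partners with immunoglobulin superfamily proteins, had -0.55, -0.78, -0.63 and -0.34, lower on every array, and was 1.49-fold lower (-0.58 ± 0.13; limma, adjusted p = 0.0148).

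Cd9, which binds integrins and other membrane proteins, had log2 ratios of 0.41, -0.35, 0.43 and 0.48. The dye swap of replicate 1 alone lay below 0, and the mean of 0.24 ± 0.30 did not pass (95% interval from -0.14 to 0.62; limma, adjusted p = 0.245). Without that array Cd9 was called higher at 0.43 (limma, adjusted p = 0.0126). A second probe with this gene name lies on the opposite strand (chr6:125445268-125445327). It was not well above background on 3 of 4 arrays in either population, and it did not enter the test. Without the first array of replicate 1 the calls of Cd82 (0.80, limma, adjusted p = 0.123), Cd63 (0.78, adjusted p = 0.131) and Cd81 (-0.64, adjusted p = 0.254) were lost while their directions stayed. Over all tested alternatives their adjusted p ran from 7.35e-05 to 0.209 (Cd82), 4.34e-04 to 0.131 (Cd63) and 0.00567 to 0.330 (Cd81). Of 16 such alternatives the call was kept in 14 for Cd82, 11 for Cd63 and 13 for Cd81.

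**Figure D3:**
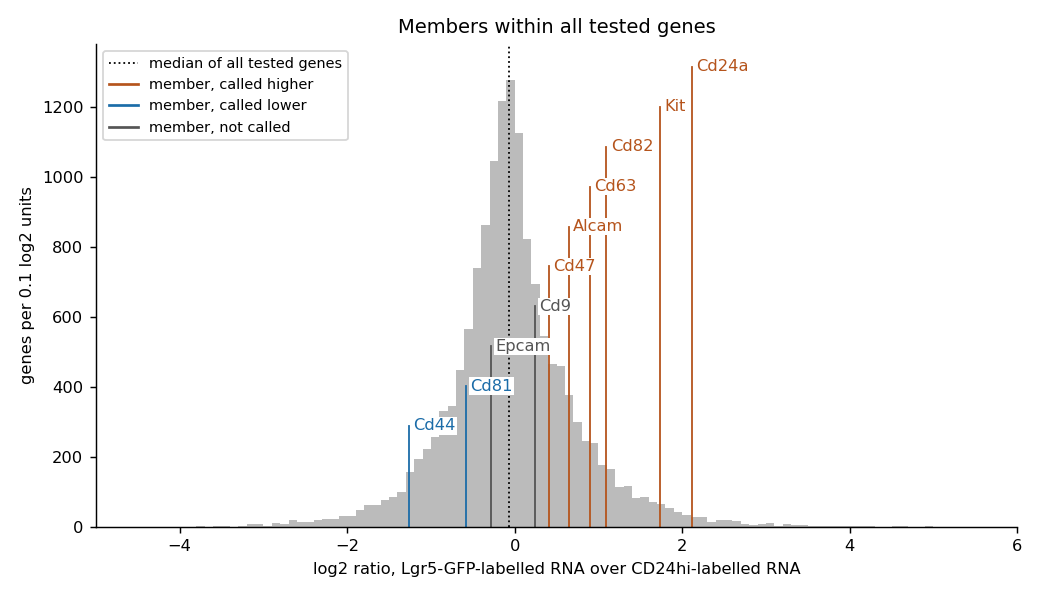
Histogram of the log2 ratio of Lgr5-GFP-labelled RNA over CD24hi-labelled RNA over the 14802 tested genes, in steps of 0.1, with the 10 genes marked by lines coloured by their call; line heights only separate the names. Cd24a (2.12) and Kit (1.74) lie in the right tail, Cd44 (-1.26) in the left, and Epcam (-0.28) and Cd9 (0.24) near the median of -0.07.

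The 8 members with a value on all 4 arrays shared one feature: each was lowest on the dye swap of replicate 1, by a median of 0.71 below the mean of the other arrays. The same array was the lowest for 63% of the 5651 tested genes with 4 values (median difference -0.35), and for 74.2% of the 3020 such genes at least as bright as the dimmest of these members (-0.48). Without that array the log2 ratios were 2.32 for Cd24a, 2.01 for Kit, 1.40 for Cd82, 1.01 for Cd63, -0.17 for Epcam, -0.52 for Cd81 and -1.12 for Cd44. Each kept its direction, and of these Epcam alone was not called (limma, adjusted p = 0.214).

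Of 26 further tetraspanins on the array, 18 were tested, and limma called 8 of these higher in the Lgr5-GFP-labelled RNA and 1 lower (adjusted p under 0.05). Over all tested genes 47.2% were called, 21.7% higher and 25.5% lower. Their median log2 ratio was 0.43, beside -0.07 over all tested genes. Tspan13 had 2.96, 1.21, 3.40 and 2.99 on the arrays and a mean of 2.64 ± 0.78. Tspan1 had 2.16, 2.20, 2.14 and 2.35, close together on all 4, with a mean of 2.21 ± 0.05 (limma, adjusted p = 6.40e-04). Tspan3 had a mean of 1.23 ± 0.22, and Upk1b, a uroplakin of the bladder lining, 1.19 ± 0.03, with signal well above background in the CD24hi-labelled RNA on 1 of 3 arrays and a ratio of 0.60 to 3.90 over alternatives.

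Tspan7 was the one tetraspanin of the list called lower, with log2 ratios of -2.33, -1.16, -2.03 and -1.69 and a mean of -1.80 ± 0.08 (limma, adjusted p = 7.35e-04). On the dye swap of replicate 1 it lay nearest to 0, unlike the members, which were lowest there. Tspan33 (0.15 ± 0.10) and Tspan12 (-0.19 ± 0.09) were the brightest that did not pass, and Tspan33 was below 0 in 2 of 18 alternatives. The median of the list stayed above 0 in each alternative, from 0.16 to 0.66.

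**Figure D4:**
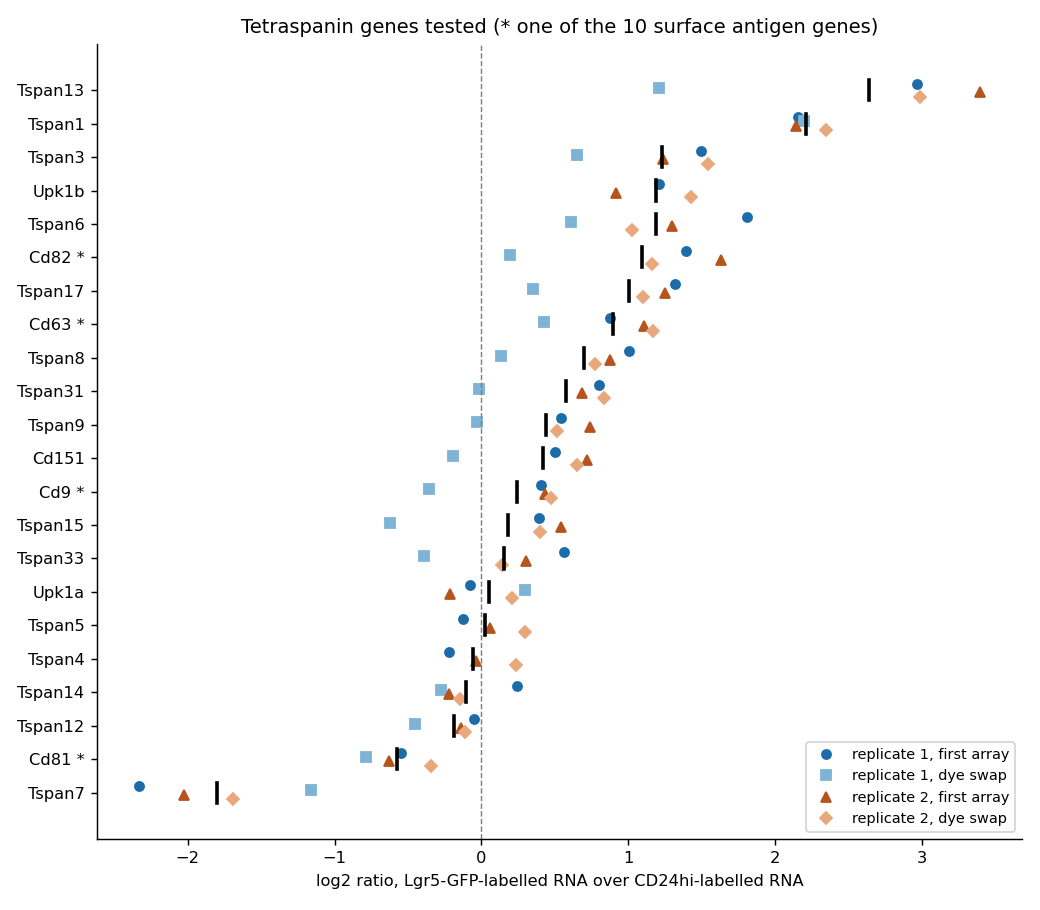
Log2 ratio of Lgr5-GFP-labelled RNA over CD24hi-labelled RNA for each tested tetraspanin gene on each array (points), with the mean over 2 replicates (bar); starred names are members of the set of 10. Tspan13 (2.64) and Tspan1 (2.21) lie above Cd82 (1.10) and Cd63 (0.89), and Cd81 (-0.58) and Tspan7 (-1.80) lie at the low end.

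Of 24 other surface antigens used on gut epithelium, 20 were tested, 7 of them higher in the Lgr5-GFP-labelled RNA and 6 lower, with a median of 0.14. Over all tested genes 21.7% were called higher and 25.5% lower. Thy1, among the 6, was well above background in the Lgr5-GFP-labelled RNA on 1 of 3 arrays. Counting only genes above background in both populations, 7 of 19 were higher and 5 lower. The balance turned with the scaling: 4 were higher and 6 lower with the processed signals (median -0.02), and 4 higher and 8 lower with median centring (-0.08). Plet1, a surface protein of epithelial progenitors, had 5.15, 3.87, 5.40 and 5.34 on the arrays and a mean of 4.94 ± 0.61, or 30.7-fold (limma, adjusted p = 6.23e-04). Cd55, a complement inhibitor, had 1.19 ± 0.46, Cd38, an enzyme that consumes NAD, 0.94 ± 0.04, and Ly6a, known as Sca-1, 0.70 ± 0.03. Each of these was higher on every array with a value.

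Itga6, the integrin of epithelial contact with laminin, had log2 ratios of -1.43, -1.89, -1.28 and -1.53 and a mean of -1.53 ± 0.18 (limma, adjusted p = 0.00104). Lrig1, an inhibitor of ErbB receptors that marks stem cells, had -1.33 ± 0.24, Tfrc, the transferrin receptor, -1.30 ± 0.29, and Dpp4, a peptidase, -0.65 ± 0.15. Cdh1, which encodes E-cadherin (-0.34 ± 0.15), and Ephb2, a receptor graded along the crypt (0.14 ± 0.11), were the brightest that did not pass. Ephb2 was below 0 in 2 of 16 alternatives.

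Of 29 ligands and partners of the members, 25 were tested, with 4 higher and 3 lower, beside 21.7% and 25.5% of all tested genes. The median was -0.04, near that of all tested genes, and over alternatives it ran from -0.19 to 0.03. Beside Sirpa, the integrin chains Itga2 (0.76 ± 0.07) and Itga3 (0.65 ± 0.16) and Sdcbp, an adaptor that binds CD63 in vesicle formation (0.41 ± 0.09), were higher. Itga2 was well above background in the CD24hi-labelled RNA on 1 of 3 arrays, and Sdcbp was called in 7 of 16 tested alternatives. Igsf3, an immunoglobulin superfamily protein (-1.28 ± 0.04), and Timp1, a protease inhibitor that binds CD63 (-0.53 ± 0.01), were lower, as was Kitl. Cldn7, a claudin that binds EPCAM (-0.05 ± 0.62), and Ezr, which links CD44 to actin (-0.04 ± 0.36), were the brightest that did not pass, and both changed sign among alternatives.

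Cell type markers were set beside these genes because the antigens differ between cell types. For each marker list the share to set beside its counts is that over all tested genes, 21.7% called higher and 25.5% lower. The summed normalised signals that follow are given as the range over the 2 replicates, without the dye swap of replicate 1. Such sums weigh the brightest genes of a list most. Of 15 goblet cell markers, limma called 12 higher in the Lgr5-GFP-labelled RNA and 0 lower. The sums were 719048 to 928289 there and 72733 to 130402 in the CD24hi-labelled RNA. Retnlb was at 4.05 ± 0.88 and Muc2 at 3.76 ± 0.58. The other 3 were not called: Tff3 (-1.75 and -0.16 in replicates 1 and 2), Fcgbp (-0.41 and 0.61) and Zg16 (0.80 and -0.20). With the processed signals or with median centring, 1 goblet marker was called lower. Of 11 tested markers of deep crypt secretory and Paneth cells, 6 were higher and 2 lower (11354 to 19590 and 5104 to 5141), with Mmp7 at 2.46 ± 0.05, from 2 arrays, and Egf at 2.23 ± 0.54 on one side and Defa3 at -0.64 ± 0.44 and Wnt3, whose level in the Lgr5-GFP-labelled RNA was not well above background, on the other. Defa3 was called in 9 of 16 tested alternatives (adjusted p up to 0.924, ratio from -0.95 to -0.02). Of 13 stem cell markers, 1 was higher, Tnfrsf19 at 1.06 ± 0.31, and 9 were lower (13509 to 13730 and 28932 to 30309), among them Smoc2 at -2.78 ± 0.39. Lgr5 and Axin2, also among the 9, were well above background on every array with a value in the CD24hi-labelled RNA alone. Counting only genes above background in both populations, 1 of 11 was higher and 7 were lower. Cd24a and Kit lay on the side of most of the called secretory markers. The called colonocyte markers given below and 21.7% of all tested genes lay there too. Cd44 lay on the side of most stem cell markers and of 25.5% of all tested genes. The part of cell type makeup in these ratios was not tested.

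Other mature types were counted in the same way. Of 11 enteroendocrine markers, 6 were higher and 0 lower (98803 to 156010 in the Lgr5-GFP-labelled RNA and 7883 to 25239 in the CD24hi-labelled RNA), with Chgb at 3.87 ± 1.02 and Chga at 3.64 ± 1.43. The other 5 were not called, and the hormone genes Gcg (-1.69 and 2.01 in replicates 1 and 2), Pyy (-0.94 and 2.48), Insl5 (-1.83 and 1.37) and Cck (-0.67 and 1.26) had opposite signs in the replicates. The median of the list was 0.84, and 0.21 without replicate 2, where 13 genes passed the filter, so the 2 medians are not over the same genes. Isl1, counted higher, was well above background in the CD24hi-labelled RNA on 1 of 3 arrays and entered the test through the other population. Of 9 tuft cell markers, 8 were higher and 1 lower (1882 to 2542 and 885 to 993), but 4 of the 8 were well above background in the CD24hi-labelled RNA on at most 1 array, so they entered the test through the population where they were high and the count is no support. With non-uniform backgrounds kept in normexp, 0 were called by limma (9 at an unadjusted p under 0.05). Dclk1 (2.28 ± 0.37), well above background in the CD24hi-labelled RNA on 1 of 3 arrays, and the ion channel gene Trpm5 (1.97 ± 0.45) stood against Hpgds at -0.93 ± 0.10. Hpgds in turn entered the test through the CD24hi-labelled RNA, as it was well above background in the Lgr5-GFP-labelled RNA on 2 of 3 arrays. Of 12 colonocyte markers, 4 were higher and 0 lower (182553 to 188960 and 42236 to 46081), with Guca2a at 3.05 ± 0.33 and Scnn1a at 2.54 ± 0.40. Guca2a was also the brightest of the 12, at a mean log2 brightness of 15.6 beside 14.1 for Vil1, so the sums lean on it. The other 8 were not called, among them Slc26a3 (-0.49) and Car4 (-0.13), and the median of the list was 0.29.

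KIT is also a marker of mast cells and of the interstitial cells of Cajal, which pace gut muscle. Of 13 myeloid and mast cell markers on the array, 3 were tested, and the mast cell genes Cpa3, Mcpt1, Mcpt2, Tpsb2 and Ms4a2 and the leukocyte gene Ptprc did not pass the background filter. Of the 3 tested, 0 were higher and Cd14 was lower at -0.40 ± 0.14 (1071 to 1249 and 1266 to 1671). Of 15 stromal, endothelial and Cajal cell markers, 6 were tested, 2 higher and 1 lower (2677 to 3687 and 2082 to 3159). Ano1, a chloride channel of Cajal cells and of some epithelia, had 2.85, 0.88, 2.41 and 2.24 on the arrays and a mean of 2.09 ± 0.32. Col1a2 was at 0.44 ± 0.16 and Pdgfrb at -0.46 ± 0.17, while Col1a1, Col3a1, Pdgfra, Des and Pecam1 did not pass the filter. Of 3 tested T and NK cell markers, 1 B cell marker and 5 glial and neuronal markers, 0 were called by limma, at summed signals of 446 to 465, 112 to 161 and 518 to 589 in the Lgr5-GFP-labelled RNA and 466 to 508, 142 to 182 and 601 to 744 in the CD24hi-labelled RNA.

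**Figure D5:**
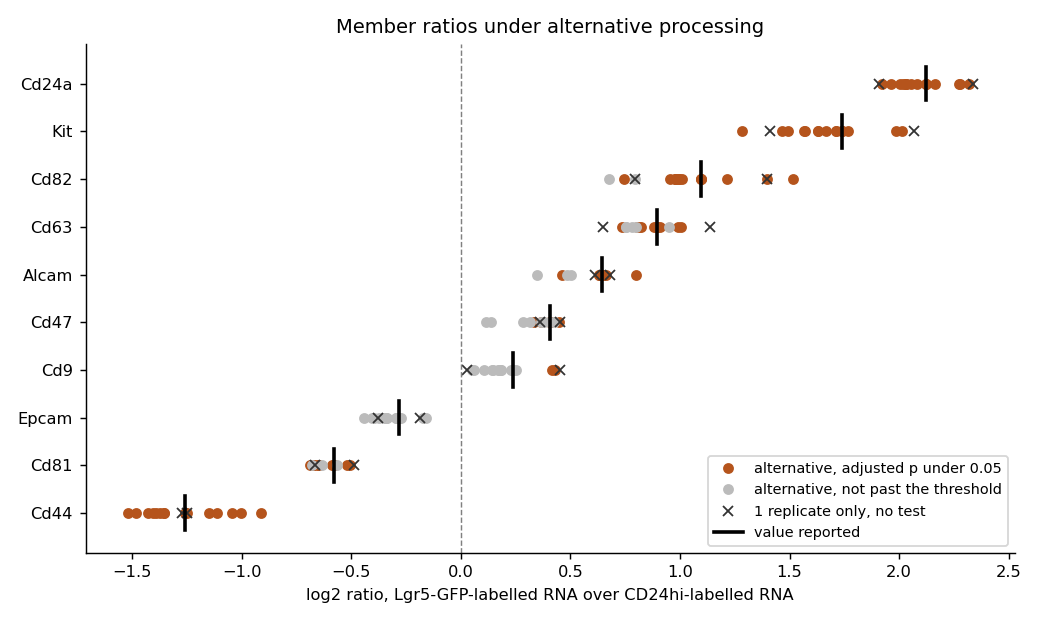
Log2 ratio of Lgr5-GFP-labelled RNA over CD24hi-labelled RNA for the 10 genes as reported (bar) and under alternative ways of processing (points, 18 for each gene but 16 for Alcam and Cd47; crosses are single replicates, with no test). No gene changes sign, Cd24a, Kit and Cd44 pass the threshold in each tested alternative, Epcam in none, and Cd9 in 2 of 16.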

How the data were processed

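RNA labelled Lgr5-GFP and CD24hi was hybridised to 4 2-colour arrays (2 replicates, each an array and its dye swap), with 300 ng of RNA labelled per the labels' protocols. Per the file headers, the arrays were read with Feature Extraction 10.5.1.1. Deposited intensity values comprised mean spot and median local background signals, without normalization, and a processed set corrected by that software, from which the authors' deposited log10 ratio of red over green was made. The deposited series table held log2 ratios of red over green, as found by setting them against each array's log10 ratio (r of 0.912 to 0.987, slopes of 2.84 to 3.29, column medians of -0.01, 0.03, -0.01 and -0.01). How it was normalized is unstated in the labels and headers.

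Background was corrected with normexp (limma 3.58.1, R 4.3.3, offset 50), without the spots of non-uniform background, and global loess within each array followed, control and marked outlier spots having weight 0. Giving marked spots weight 0 in the curve was settled after a fit with them in it had been seen. Marked spots were left out and spots of a probe averaged. A probe was kept if well above background on every array with a value in at least 1 population, the brightest such probe stood for its gene, and 15 of the 16 member probes passed. The sign was turned to Lgr5-GFP over CD24hi, and limma tested the 2 replicate ratios against 0 (2-sided, 1 residual and 4.50 prior degrees of freedom, Benjamini-Hochberg over all 14802 genes, adjusted p under 0.05). A call is a gene past that threshold. The fit was tested on simulated data. Names came from RefSeq (GRCm38.p6, names only) for 27041 gene spots and from the files for 16338.

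Members, lists and the rule for named genes (members, Lgr5, the largest called and brightest uncalled members of each list) were chosen with earlier results of these data known. Another 18 settings are given at the end. One member of a marker list is not reported here, and its list is counted without it.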

Additional observations from a re-analysis of the deposited data

Results flagged for a closer look

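Over their 4 arrays, 3 of the 8 members with a value on each had one array far from the others, and it was the dye swap of replicate 1 each time. The log2 ratio there was 0.86 for Kit, -0.60 for Epcam and -0.35 for Cd9, below each of the other arrays of that gene. The gap was 0.872, 0.882 and 0.915 of the range over arrays, above Dixon's 95% critical value for 4 values, which chance passes in about 1 group in 20. The 8 genes share these arrays and are not independent.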

How the results depend on the processing

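No member changed sign in any of 18 alternatives (16 for Alcam and Cd47, which lacked a value in the others), and Cd24a, Kit and Cd44 were called in each of 16 with a test. Counts of members, of all genes or of a list's calls in both directions together moved by over 1.5 times in 4. With non-uniform backgrounds kept in normexp, 3 members were called higher and 1 lower, among 1387 genes (767 higher), with 5 tetraspanins, 2 sorting antigens and 0 partners by limma (5 at an unadjusted p under 0.05). With marked spots kept, 3 members were called higher, among 3731 genes (1435 higher), with 6 sorting antigens and 3 partners. Without the first array of replicate 1, 2 members were called higher and 1 lower, among 981 of 6032 genes (500 higher), with 4 tetraspanins, 3 sorting antigens and 0 partners by limma (1 at an unadjusted p under 0.05). The dye swaps alone gave 2 and 1 members, 999 of 6297 genes (511 higher), 4 tetraspanins, 3 sorting antigens and 0 partners by limma (1 at an unadjusted p under 0.05); these last 2 settings tested fewer genes, and the cause was not tested otherwise. By direction, 4 sorting antigens were higher (7 as reported) with the processed signals, with median centring and with marked spots in the loess curve. Partners called lower numbered 6 with the processed signals and 5 with median centring and with the series table (3 as reported), and partners called higher 2 with median centring and with the filter on both populations (4 as reported). Without the dye swap of replicate 1, 7 members were called higher, among 8543 genes (3983 higher), with 13 tetraspanins, 15 sorting antigens and 9 partners.

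Of all calls, 45.9% were higher; this was 32.7% with the processed signals and 29% with median centring, and the median over all tested genes was then -0.29 and -0.25, against -0.07 as reported and -0.17 with the series table. Marked spots kept in the loess curve alone, an alternative chosen after seeing the data, gave 2370 higher and 3192 lower calls. The fit to 4 arrays with a dye term and the replicate as a random block could not be fitted, since 4 arrays left no estimate of the correlation. Each array holds both populations, so the test of the ratios against 0 is already paired, and no separate paired analysis applied. Leaving out a whole replicate gave values with no test.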
